A study of Homo sapiens with 17 samples.

Results

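LINC-named genes are long non-coding RNA (lncRNA) genes that carry a LINC number as their symbol, a name given to lncRNA genes that lie between protein-coding genes (PCGs) and have no better known function to be named for. The members were chosen by their symbol alone, as genes of lncRNA biotype with the letters LINC followed by a number, and the rule uses no measured value. The table listed 251 such genes, of which 9 had no TPM, leaving 242 LINC RNAs out of 16905 genes with a TPM and 18869 genes listed in all. Of the 2420 lncRNA genes with a TPM, the other 2178 carry antisense names, clone-based names or names of another kind. All 242 were found by identifier in GENCODE release 44 on hg38, where each was still a lncRNA. In that release 17 had been given another name, and 13 of these were now named as divergent transcripts of a neighbouring gene. The label "intergenic" held only in part, since 43 of the 242 were covered over at least 50% of their span by the exons or introns of other genes.

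Most lncRNAs are made by RNA polymerase II and, like mRNAs, are capped, spliced and polyadenylated, but on average they are less abundant and more often retained in the nucleus. A poly(A) tail is bound by PABPN as it is made in the nucleus and by PABPC in the cytoplasm, and PABPC on an mRNA is known to interact with the translation initiation machinery. Many lncRNAs that reach the cytoplasm have been seen in contact with ribosomes, and a few short open reading frames in genes once taken for non-coding have turned out to encode small proteins. Ribo-STAMP reads contact with the small ribosomal subunit. In RPS2-STAMP cells the cytidine deaminase APOBEC1 is fused to the ribosomal protein RPS2, so that RNAs close to the subunit gain C-to-U edits, and in Control-STAMP cells APOBEC1 is expressed alone.

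The cells were HEK293T, an established line of human embryonic kidney origin, with each construct inserted by lentivirus in a stable line and induced by 50 ng/ml doxycycline for 24 h before crosslinking in 0.1% formaldehyde. Of 17 samples, 9 were RPS2-STAMP with 3 each of Input, PABPN IP and PABPC IP, and 8 were Control-STAMP with 3 Input, 3 PABPN IP and 2 PABPC IP. The study describes the lysate as cytoplasmic, while the labels state no fractionation. The deposited table gave 1 control-subtracted EPKM (an editing rate scaled to transcript length and library size) and 1 average TPM (a level scaled to length and to the total of the library) for each gene and fraction. Each gene therefore had 1 value per fraction with no replicate error and no edit or read counts, so no difference below has a replicate check or a test. The study gives a minimum and an average read number for these libraries together, but not the depth behind each value. An EPKM of 0 can be an absence of edits or editing no higher than in the control, and the 2 cannot be told apart. A lower TPM can be fewer cells with the RNA or less RNA per cell.

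Most LINC RNAs had no net editing, that is an EPKM of 0, both in the Input and with PABPC, while a small majority were above 0 with PABPN. An EPKM above 0 was found for 66 of the 242 (27.3%) in the Input, for 87 (36.0%) in the PABPC IP and for 129 (53.3%) in the PABPN IP. Among all genes with a TPM the shares were 58.8%, 67.2% and 66.1% in the same order, so the LINC RNAs lay below the background in every fraction. The gap was widest in the Input and narrowest in the PABPN IP. Other lncRNAs had 25.9%, 37.0% and 53.8% without regard to abundance, and PCGs reached 67.9%, 75.2% and 69.5%. Among LINC RNAs the PABPN IP had the highest share, whereas among PCGs the PABPC IP did. The median EPKM over the 242 was 0 (Input), 0 (PABPC IP) and 0.00213 (PABPN IP).

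LINC RNAs with editing in 1 fraction were in part edited in others too. Of the 242, no editing in any fraction was seen for 68, editing in a single fraction for 97, in 2 for 46 and in all 3 for 31. The most frequent pattern with editing was an EPKM above 0 in the PABPN IP alone, with 64 LINC RNAs (26.4%), against 20 for the PABPC IP alone and 13 for the Input alone. Other lncRNAs were similar, with 24.3% at 0 throughout (28.1% of LINC RNAs), 27.2% above 0 with PABPN alone and 8.31% above 0 in all 3 fractions (12.8% of LINC RNAs). PCGs were at 5.08%, 7.43% and 41.7%. Abundance differed among these patterns. The median of the mean TPM over fractions was 0.742 for the 68 without any editing, 1.08 for the 64 seen in the PABPN IP alone and 5.04 for the 31 above 0 throughout.

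The share of LINC RNAs above 0 climbed with abundance in the Input and the PABPC IP and hardly at all in the PABPN IP. With PABPC it was 21.0% of 124 genes at a TPM under 1, 41.3% of 80 genes at a TPM of 1 to 5, 70.6% of 34 genes at 5 to 20, and 4 of 4 genes at 20 and above. In the Input the shares were 12.5% of 152 genes, 45.8% of 72, 81.3% of 16, and 1 of 2. In the PABPN IP they were 46.2% of 65 genes, 51.5% of 99, 62.7% of 59 and 57.9% of 19. At 5 to 20 TPM other lncRNAs were at 55.3% in the Input, 62.9% with PABPC and 56.8% with PABPN, and PCGs were at 3453 of 4603 genes, 78.6% and 65.5%. The lowest class stood out with PABPN, because 30 LINC RNAs with a PABPN IP TPM under 1 nevertheless had an EPKM above 0, with a median of 0.00652 among the 30. Other lncRNAs under 1 TPM gave a like share in the PABPN IP, 47.4% of 359, and so did PCGs, 48.2% of 622. The highest PABPN IP EPKM of any LINC RNA, 0.237, belonged to LINC00106 on chromosome X, which was listed at a TPM of 0 in the Input and both IPs and had an EPKM of 0 in the Input and the PABPC IP. It was singled out after its value was seen. Across the 86 LINC RNAs with TPM ≥1 in all fractions, Spearman's rho between TPM and EPKM was 0.48 for the PABPC IP and 0.096 for the PABPN IP. Over the 37 with TPM ≥5 in both IPs it was 0.058 and 0.062, so the contrast between the IPs was not seen there. Both measures of a fraction share libraries, and rho is given as a description over genes.

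**Figure D1:**
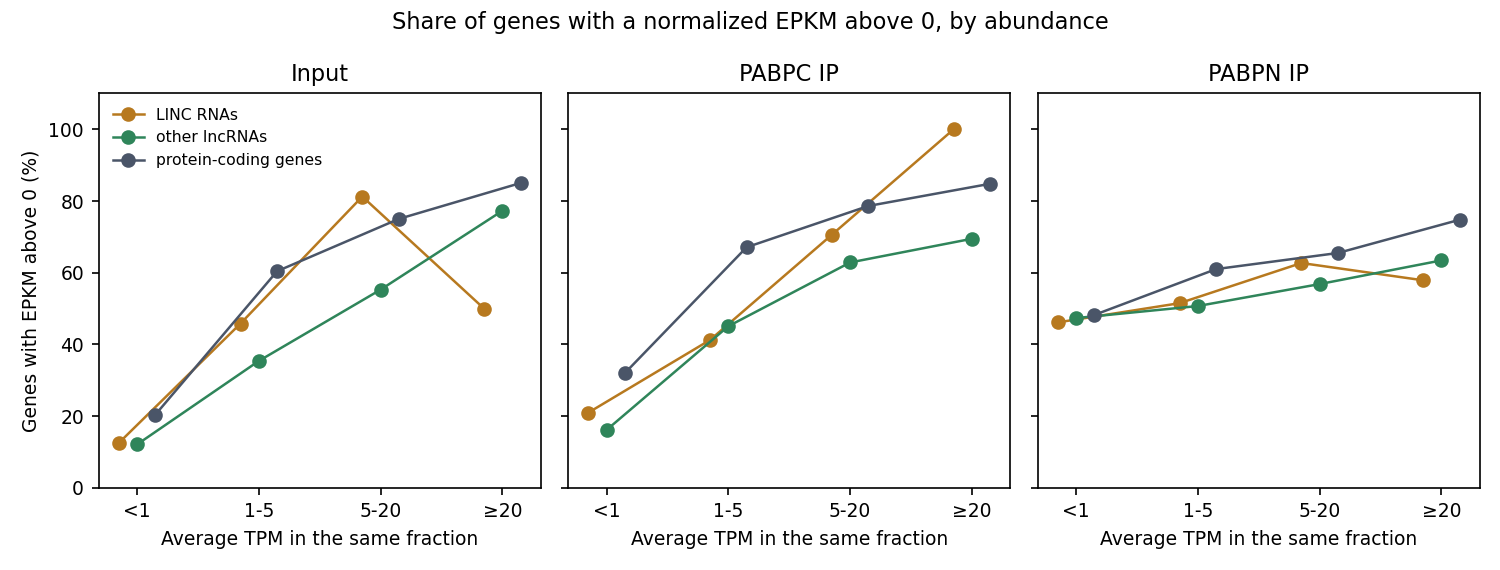
Percentage of genes with a normalized EPKM above 0 (y axis) in classes of average TPM in the same fraction (x axis), for the 242 LINC RNAs, the other 2178 lncRNAs and 13076 PCGs, with a panel for each fraction. LINC RNAs go from 21.0% under 1 TPM to 70.6% at 5 to 20 TPM in the PABPC IP, and from 46.2% to 62.7% in the PABPN IP. The class of 20 and above holds only 2, 4 and 19 LINC RNAs in the Input, PABPC IP and PABPN IP.

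Few LINC RNAs were abundant, and those that were had higher editing than the rest. TPM ≥5 in both IPs was reached by 37 LINC RNAs, 15.3% of the 242. Their TPM ranged from 1.41 to 23.4 (Input), from 5.02 to 64.9 (PABPC IP) and from 6.28 to 93.2 (PABPN IP). Of these 37, an EPKM above 0 was seen for 25 (67.6%) in the Input, for 27 (73.0%) in the PABPC IP and for 23 (62.2%) in the PABPN IP, and 14 were above 0 in all 3 fractions. Among all 10398 genes at this limit the shares were 76.5%, 81.2% and 72.1%, and among other lncRNAs 54.1%, 63.9% and 61.0%. All genes at this limit were also more abundant than the LINC RNAs, with a median TPM of 26.9 against 8.35 in the PABPC IP and 36.8 against 19.0 in the PABPN IP. The median EPKM of the 37 LINC RNAs was 0.00372 (Input), 0.0343 (PABPC IP) and 0.0164 (PABPN IP). The PABPC IP median was thus 0.0179 EPKM above the PABPN IP median, beside 0.0167 for 9607 PCGs and 0.00351 for 462 other lncRNAs at the same TPM limit. Without LINC02593 and LINC00641, which the study lists for transcription running in from upstream, it was 0.0116. Gene by gene, 20 of the 37 (54.1%) had more editing in the PABPC IP, 11 (29.7%) had more in the PABPN IP, and 6 had equal values. Over all 242 the order was the reverse, with 56 (23.1%) higher with PABPC and 105 (43.4%) higher with PABPN, beside 45.2% and 41.2% of all genes with a TPM. Among all 10398 genes at this limit 55.5% had more editing in the PABPC IP and 37.7% more in the PABPN IP, so the share of LINC RNAs higher in the PABPC IP was near the background. The median of the 37 differences was only 0.00219 EPKM, and with the TPM limit lowered to 1 the difference of medians turned to -0.00387.

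**Figure D2:**
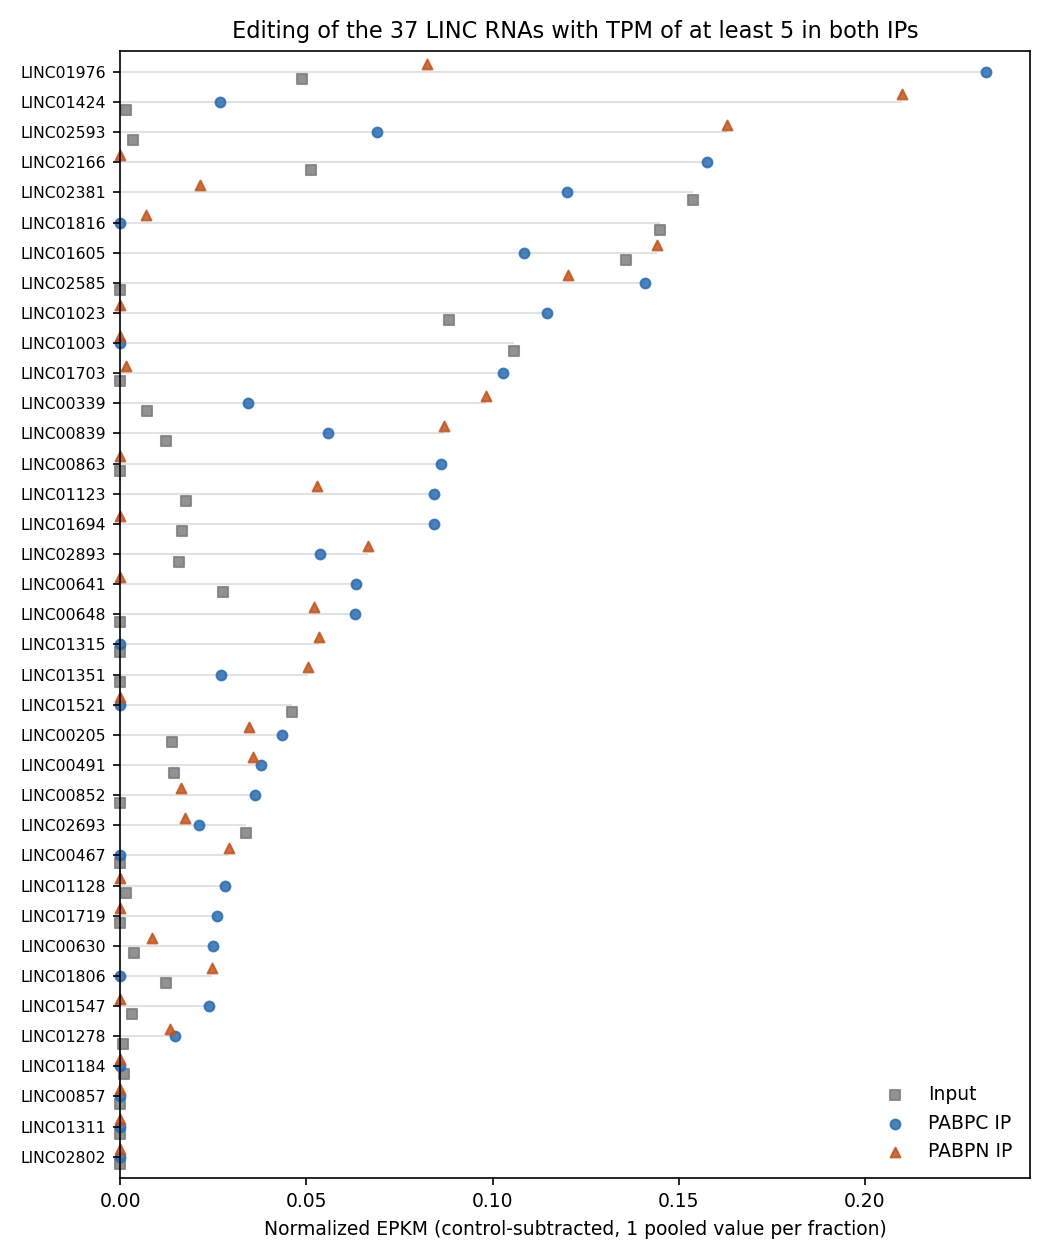
Normalized EPKM (x axis) of each of the 37 LINC RNAs with TPM ≥5 in both IPs (rows, ordered by their highest value) in the Input (squares), PABPC IP (circles) and PABPN IP (triangles). Each point is the authors' single pooled value. LINC01976 has the highest PABPC IP value, 0.233, LINC01424 the highest PABPN IP value, 0.210, and LINC02381 the highest Input value, 0.154.

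LINC01976 (ENSG00000261514) had the highest EPKM in the PABPC IP among the 37. It is a gene of 2 exons at chr17:43938257-43938963 on the plus strand of hg38, with no other gene over it. Its EPKM was 0.0488 (Input), 0.233 (PABPC IP) and 0.0823 (PABPN IP). Its TPM was 13.7, 50.2 and 22.9 in the same order, which made it the LINC RNA with the lowest TPM ratio of PABPN IP to PABPC IP. Both its editing and its abundance were thus highest in the PABPC IP.

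LINC01424 (ENSG00000236519) was the reverse case, with the highest EPKM in the PABPN IP among the 37. It has 2 exons at chr21:44801883-44804717 on the plus strand, also with no other gene over it. Its EPKM was 0.00149 (Input), 0.0267 (PABPC IP) and 0.210 (PABPN IP). The TPM was 4.94, 5.94 and 52.5, so that the PABPN IP was highest on both scales.

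The longest frame from an ATG to an in-frame stop codon in the canonical transcript is shown for LINC01976, which carries the highest editing in the PABPC IP, together with LINC01703, edited in the PABPC IP at 0.103 against 0.00153 in the PABPN IP, and LINC00857 and LINC02802, which were at 0 in every fraction. Sequences were read from the GENCODE 44 transcripts, 5′ to 3′, and capitals mark the start and stop codons. None of these frames is known from these data to be translated.
LINC01976, bases 29 to 295 of a transcript of 544 bases, 267 bases: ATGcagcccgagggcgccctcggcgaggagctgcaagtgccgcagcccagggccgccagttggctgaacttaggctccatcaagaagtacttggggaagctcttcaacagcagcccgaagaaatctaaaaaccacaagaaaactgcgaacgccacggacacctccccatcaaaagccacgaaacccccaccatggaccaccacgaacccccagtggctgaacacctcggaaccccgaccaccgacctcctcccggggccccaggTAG
LINC01703, bases 375 to 488 of 1110, 114 bases: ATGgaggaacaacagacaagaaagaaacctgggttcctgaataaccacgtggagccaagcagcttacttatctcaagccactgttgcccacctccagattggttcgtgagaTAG
LINC00857, bases 1670 to 1885 of 2459, 216 bases: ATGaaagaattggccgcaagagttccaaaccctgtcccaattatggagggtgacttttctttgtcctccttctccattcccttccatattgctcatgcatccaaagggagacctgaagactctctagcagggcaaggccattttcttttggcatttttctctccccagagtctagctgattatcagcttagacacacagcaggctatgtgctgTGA
LINC02802, bases 337 to 447 of 588, 111 bases: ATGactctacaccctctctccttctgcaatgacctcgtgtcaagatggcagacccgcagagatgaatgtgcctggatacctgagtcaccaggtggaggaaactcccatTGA

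Frame length and editing were compared next. Of the 4 printed, the longest frame is that of LINC01976 (267 bases) and the shortest that of the unedited LINC02802 (111 bases). The unedited LINC00857 (216 bases) has a longer frame than the edited LINC01703 (114 bases). LINC01311, also unedited in every fraction, has a frame of 375 bases, longer than that of LINC01976. Frames over 300 bases, its own among them, were not printed. LINC02585 has a canonical transcript of only 196 bases without any complete frame from an ATG, yet its EPKM was 0 (Input), 0.141 (PABPC IP) and 0.120 (PABPN IP), the third highest PABPC IP value among the 37. Over all 242, a frame of at least 300 bases was found in 70, of which 34.3% were above 0 in the Input, 40.0% with PABPC and 51.4% with PABPN. Among the other 172 the shares were 24.4%, 34.3% and 54.1%, so the longer frames were more often above 0 in the Input and with PABPC. The 70 with a longer frame also had a higher median PABPC IP TPM, 1.01 against 0.753, and the part of abundance in these differences was not tested. Spearman's rho between frame length and PABPC IP EPKM was 0.25 over the 86 LINC RNAs with TPM ≥1 in all fractions and 0.021 over the 37, again as descriptions over genes.

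Among the 37, the excess of editing in the PABPC IP over the PABPN IP was largest for LINC02166, followed by LINC01976, LINC01023, LINC01703 and LINC02381. LINC02166 had an EPKM of 0.0512 (Input), 0.158 (PABPC IP) and 0 (PABPN IP), although its TPM was higher in the PABPN IP (24.5) than in the PABPC IP (16.6). LINC01023, a gene of 1 exon, had 0.0884, 0.115 and 0 in the same order, and again the PABPN IP held more of the RNA (TPM 14.9 against 6.15). LINC02381, the most abundant of the 37 on average, had an EPKM of 0.154 (Input), 0.120 (PABPC IP) and 0.0213 (PABPN IP), with a TPM of 23.4, 64.9 and 51.7. For LINC02166 and LINC01023 the IP with editing was therefore the one with less of the RNA. LINC02166 and LINC02381 lie wholly within the span of genes on the opposite strand, and the part of reads from those genes in their values was not tested.

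Among the 37, editing higher in the PABPN IP was largest for LINC01424, followed by LINC02593, LINC00339, LINC01315 and LINC01605. LINC02593 on chromosome 1 had an EPKM of 0.00335 (Input), 0.0689 (PABPC IP) and 0.163 (PABPN IP). LINC00339 had 0.00720, 0.0343 and 0.0983, but 92.9% of its span is covered by other genes on the same strand, so that its edits cannot be told apart from theirs. LINC01315 was at 0 in the Input and the PABPC IP and at 0.0532 in the PABPN IP, with a TPM of 5.35, 14.2 and 12.9. LINC01605 was edited about equally in every fraction, at 0.136, 0.109 and 0.144, and is the only 1 of the 37 above 0.1 throughout. Its symbol stands on 2 identifiers, of which the other had no TPM. LINC00839 completed the 6 highest in the PABPN IP, with 0.0123 (Input), 0.0558 (PABPC IP) and 0.0870 (PABPN IP).

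A few LINC RNAs were edited in the Input and not in either IP or barely so. LINC01003, a gene of 1 exon on chromosome 7, had an EPKM of 0.106 in the Input and 0 in both IPs, although its TPM was 7.55 (Input), 18.5 (PABPC IP) and 31.5 (PABPN IP). LINC01816 had 0.145 (Input), 0 (PABPC IP) and 0.00688 (PABPN IP), at a TPM of 5.77, 11.3 and 7.04. Relative to the median gene, LINC01816 had a centred log2 ratio of 0.026 for PABPC IP over Input. Of the 37, 3 were at 0 in every fraction, namely LINC01311, LINC02802 and LINC00857. LINC02802 had a TPM of 3.50, 11.9 and 6.28 in the Input, PABPC IP and PABPN IP, and lies in a segmentally duplicated stretch of chromosome 1 where reads may be split between near-identical copies. LINC00857 had a TPM of 3.19, 7.68 and 6.58.

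LINC RNAs were in general most abundant in the PABPN IP. The median TPM over the 242 was 0.605 (Input), 0.901 (PABPC IP) and 2.52 (PABPN IP), and the PABPN IP held the highest of the 3 TPM values for 207 of them. With TPM ≥1 in every fraction this was so for 71 of 86 LINC RNAs, beside 8247 of 13001 genes of any kind. The share over all genes at any TPM is not given here, so no contrast is drawn from the 207. TPM in the IPs was shifted for genes at large, so ratios were set against the median of all 13001 genes with TPM ≥1 in every fraction. On the scale of log2(TPM + 0.5) that median was 1.22 for PABPN IP over Input, 0.88 for PABPC IP over Input and 0.37 for PABPN IP over PABPC IP, and it was subtracted from each gene's ratio. The 2 ratios over the Input share the Input values, and are given side by side.

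After centring, the 86 LINC RNAs that pass this TPM limit were shifted towards the PABPN IP and not towards the PABPC IP. Their median was 0.49 for PABPN IP over Input, with 41 of 86 (47.7%) above 0.5 and 4 (4.65%) below -0.5, where all genes had 25% above and 23.6% below. For PABPC IP over Input the median was 0.0076, with 5 (5.81%) above 0.5 and 18 (20.9%) below -0.5, against 11.7% and 19.3% of all genes. For PABPN IP over PABPC IP the median was 0.39, with 42 (48.8%) above 0.5 and 9 (10.5%) below -0.5, against 33% and 31.7%. Other lncRNAs had medians of 0.52, -0.038 and 0.59 for the 3 ratios, and PCGs of -0.056, -0.00015 and -0.068. LINC RNAs were thus placed with the other lncRNAs for PABPN, with a somewhat smaller median difference between the IPs.

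**Figure D3:**
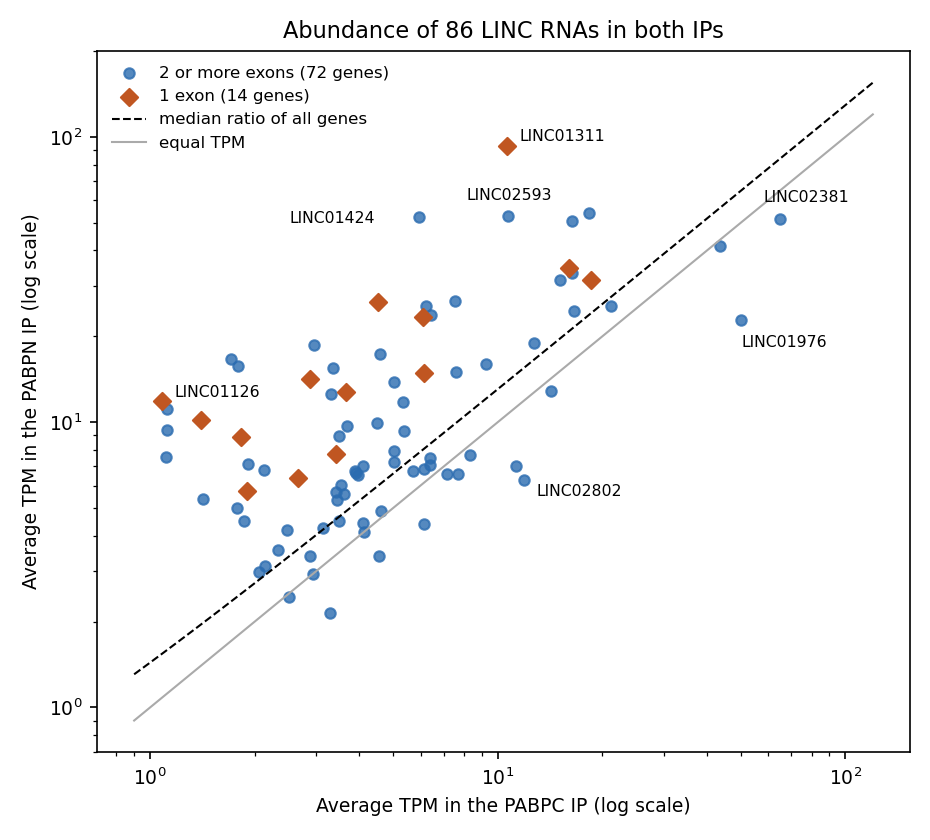
Average TPM in the PABPN IP (y axis, log scale) against the PABPC IP (x axis, log scale) for the 86 LINC RNAs with TPM ≥1 in all fractions, with genes of 1 exon as diamonds. The dashed line is the median ratio of all 13001 genes and the grey line marks equal TPM. LINC01311 stands highest, at 93.2 against 10.6 TPM, and LINC01976 lies farthest below the lines, at 22.9 against 50.2 TPM.

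The 5 highest ratios of PABPN IP to PABPC IP among the 37 were those of LINC01311, LINC01424, LINC02593, LINC00630 and LINC00852. LINC01311, a gene of 1 exon at chr22:19171395-19172851 on the plus strand, had a TPM of 6.35 (Input), 10.6 (PABPC IP) and 93.2 (PABPN IP). That was an 8.41-fold ratio between the IPs of TPM + 0.5 and the largest value of any LINC RNA in the PABPN IP, and its EPKM was 0 in all 3 fractions. LINC02593 had a TPM of 6.38, 10.7 and 52.7, a 4.75-fold ratio. LINC00630 on chromosome X had 5.00, 6.21 and 25.5, with an EPKM of 0.00372, 0.0249 and 0.00845. LINC00852 had a TPM of 4.90, 6.11 and 23.5 and an EPKM of 0, 0.0361 and 0.0164, and it starts 3201 bases downstream of the end of TATDN2 on the same strand. In these 5 the RNA was concentrated in the PABPN IP, while the editing went from 0 throughout in LINC01311 to the highest PABPN IP value of the 37 in LINC01424.

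The 5 lowest ratios were those of LINC01976, LINC02802, LINC01816, LINC02381 and LINC00857. For LINC01976 the PABPC IP stood 2.17-fold above the PABPN IP in TPM + 0.5, for LINC02802 1.83-fold and for LINC01816 1.56-fold. Only 5 of the 86 had a centred ratio above 0.5 for PABPC IP over Input, and LINC01976 (0.95), LINC02802 (0.75) and LINC02381 (0.57) were among them. The others were LINC02585 (0.73) and LINC01605 (0.51). Of these 5, LINC02802 was at an EPKM of 0 in the PABPC IP, and the other 4 were all at or above 0.109.

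Among the most abundant LINC RNAs, LINC00641 had a TPM of 19.3 (Input), 18.4 (PABPC IP) and 54.2 (PABPN IP). Its EPKM was 0.0276, 0.0632 and 0, so the fraction with the most RNA was the one without editing. LINC00641 starts 2236 bases downstream of the end of HNRNPC, an RNA-binding protein gene on the same strand, and stands in the study's list of genes with transcription running in from upstream. LINC00205 had a TPM of 9.78, 16.4 and 50.8 and an EPKM of 0.0138, 0.0434 and 0.0345.

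The highest Input TPM of any LINC RNA was that of LINC00632, 26.0, and both IPs held the least of it relative to the Input among the 86, with a TPM of 3.49 (PABPC IP) and 8.96 (PABPN IP). Its centred log2 ratio was -2.70 for PABPN IP over Input and -3.61 for PABPC IP over Input. It was among 4 of the 86 below -0.5 for PABPN IP over Input, the others being LINC01816 (-0.95), LINC00623 (-0.85) and LINC00337 (-0.53), and was singled out after its values were seen. Its EPKM was 0.0337 in the PABPN IP and 0 elsewhere. LINC00632 is known as the host transcript of the circular RNA CDR1as, which has no poly(A) tail, and the deposited TPM does not separate the linear from the circular form.

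**Figure D4:**
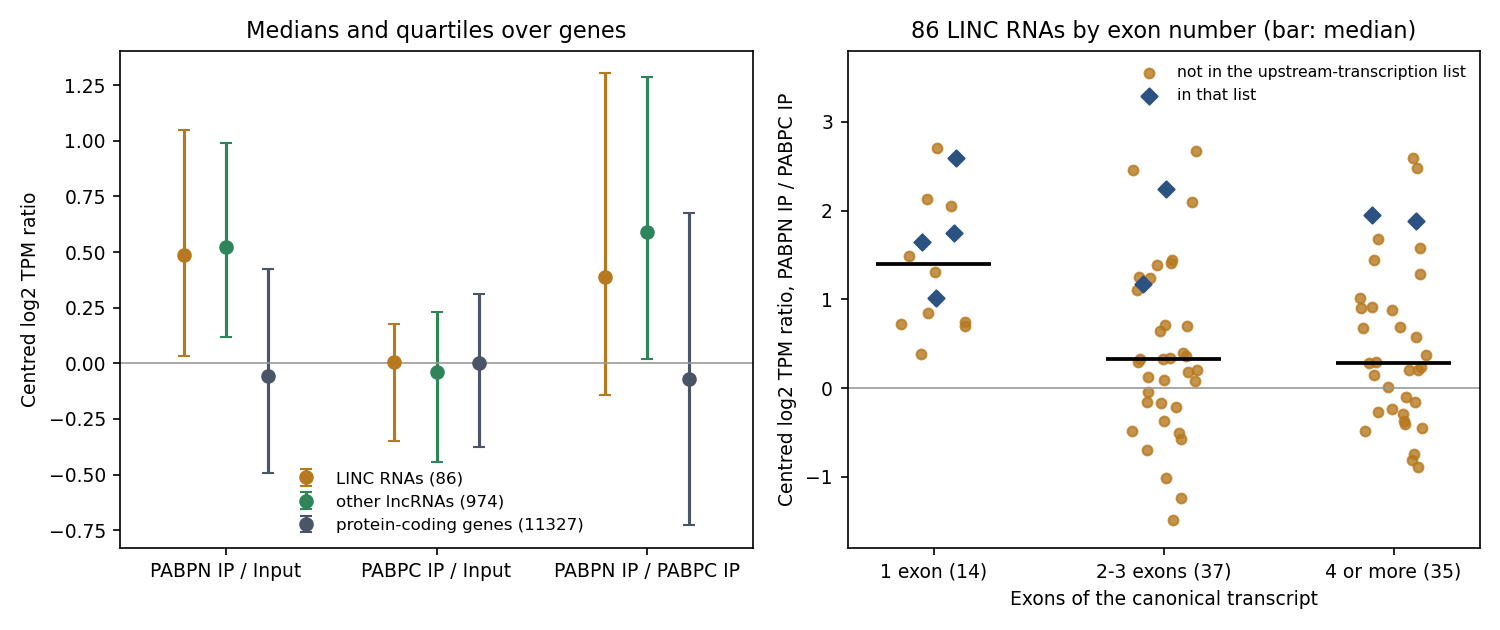
Left, median and quartiles over genes of the centred log2 TPM ratios between fractions (y axis) for 86 LINC RNAs, 974 other lncRNAs and 11327 PCGs with TPM ≥1 in all fractions. Right, the centred PABPN IP over PABPC IP ratio of each of the 86 LINC RNAs by exon number, with the median as a bar and members of the upstream-transcription list as diamonds. The median is 1.40 for 14 genes of 1 exon, 0.33 for 37 genes of 2 or 3 exons and 0.29 for 35 genes of 4 or more.

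LINC RNAs of a single exon had higher ratios between the IPs than the others, without a test. A canonical transcript of 1 exon is less frequent among the 242 (21 genes, 8.68%) than among other lncRNAs (25.5%) and more frequent than among PCGs (2.36%). Of the 86, the 14 with 1 exon had a median centred PABPN IP over PABPC IP ratio of 1.40, with a range of 0.38 to 2.70, and 13 of the 14 were above 0.5. The 72 with 2 or more exons had a median of 0.29 and a range of -1.49 to 2.67, with 29 above 0.5 and all 9 of those below -0.5. The ranges overlapped widely. The median TPM of the 14 was 2.89 (Input), 3.54 (PABPC IP) and 13.5 (PABPN IP), against 2.14, 4.52 and 7.38 for the 72, so the difference lay in both IPs and in opposite directions. Examples are LINC01311 (2.70), LINC01126 (2.60), LINC01144 (2.12) and LINC01560 (2.05). With PABPC, 9 of the 21 were above 0 (42.9%), beside 34.3% of genes with 2 or 3 exons and 36.2% of those with 4 or more. With PABPN, 8 of the 21 were above 0 (38.1%), beside 51.4% and 57.8%. Of the 14, 6 had an EPKM above 0 in the PABPC IP. Those without editing there included LINC01311, LINC01144, LINC01560, LINC01126 and LINC02604. Of these 5, only LINC02604 had an EPKM above 0 in the PABPN IP (0.0503). These examples were chosen after their values were seen.

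Genes with transcription running in from an upstream gene overlapped with this group. The study lists genes of this kind, and 12 of the 242 LINC RNAs are on its list, 8 of them with TPM ≥1 in all fractions. The list is the study's own and is no independent evidence here. The study describes it for its libraries of total cell lysate, with the most genes listed from the PABPN IP and the fewest from the PABPC IP. All 8 had a centred PABPN IP over PABPC IP ratio above 0.5, with a median of 1.81 and a range of 1.01 to 2.60, and 4 of the 12 have a single exon (33.3%). Without the 8, the median of the remaining 78 was 0.33.

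LINC RNAs without any editing held both high and low ratios between the IPs. Over all 68 at an EPKM of 0 throughout, the median centred PABPN IP over PABPC IP ratio was 0.43, beside 0.67 for the 31 edited in every fraction. Of the 68, 11 had TPM ≥1 in all fractions, and their median centred PABPN IP over PABPC IP ratio was 1.68. The 21 of that TPM with editing in every fraction had a median of 1.01. The order of the groups thus turned with the TPM limit, and LINC02802 and LINC00857, at 0 throughout, were among the lowest ratios.

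Of 10 LINC-named genes listed for a reported small peptide, 2 were among the 242, LINC00467 and LINC00665. LINC00467, reported to encode a mitochondrial small protein, had a TPM of 2.98 (Input), 7.16 (PABPC IP) and 6.60 (PABPN IP). Its EPKM was 0.0293 in the PABPN IP and 0 elsewhere. LINC00665, reported to encode a peptide that binds CIP2A, had a TPM of 1.83, 4.09 and 4.42 and an EPKM of 0.000831, 0 and 0.0299. Its span is covered over 85.5% by genes on the opposite strand. Neither had an EPKM above 0 in the PABPC IP.

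Some genes have lost their LINC number because a function or a protein was found. A LINC number as a synonym in the RefSeq gene table was found for 36 genes listed as protein-coding and 67 listed as lncRNA. Many of the 36 are long known PCGs, such as AGO2, to which a LINC transcript had later been joined, and AGO2, CACNA2D1, COMMD9 and SUCLA2 are among the 14 described next. With TPM ≥5 in both IPs, the 14 protein-coding ones had a median EPKM of 0.0425 (Input), 0.0613 (PABPC IP) and 0.0181 (PABPN IP). Their median centred PABPN IP over PABPC IP ratio was -0.30, beside 0.37 for the 37 LINC RNAs at the same limit. The 9607 PCGs at this limit had EPKM medians of 0.0273, 0.0501 and 0.0334 and a median ratio of -0.18. In this ratio the 14 were thus nearer to PCGs at large than to LINC RNAs, but only at this limit. With TPM ≥1 in all fractions, 23 protein-coding genes with a LINC synonym had a median ratio of 0.46. That was nearer to the 0.39 of the 86 LINC RNAs than to the -0.068 of PCGs. NBDY, which encodes a small protein that binds the mRNA decapping complex, had a TPM of 38.2 (Input), 102 (PABPC IP) and 56.7 (PABPN IP) and an EPKM of 0.109, 0.255 and 0. SMIM26, a small membrane protein gene, had a TPM of 58.4, 159 and 104 and an EPKM of 0.346, 0.100 and 0. SMIM30, of the same kind, had a TPM of 69.3, 231 and 217 and an EPKM of 0.327, 0 and 0.327. MTLN, whose product mitoregulin lies in mitochondria, had a TPM of 8.43, 24.2 and 23.0 and an EPKM of 0.00745, 0 and 0.0790. The EPKM of these 4 thus lay between 0 and 0.346 with no common order of the fractions, while all 4 had a higher TPM with PABPC than with PABPN. Of the 14, 7 had a higher TPM with PABPC and 7 with PABPN, and after centring 6 had a ratio above 0 for PABPN IP over PABPC IP.

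With TPM ≥5 in both IPs, 23 lncRNAs had a LINC synonym, among them XIST, MALAT1, MIR17HG and SNHG1. The synonym alone does not show that a gene was first named by a LINC number. The 23 had a median EPKM of 0.0154 (Input), 0.0172 (PABPC IP) and 0.0223 (PABPN IP). Their median centred PABPN IP over PABPC IP ratio was 0.40, close to the 0.37 of the LINC RNAs. Of the 23, 13 (56.5%) had a higher EPKM with PABPN, 9 (39.1%) with PABPC and 1 an equal value. Among all 10398 genes at this limit 37.7% were higher with PABPN and 55.5% with PABPC. NORAD, a cytoplasmic lncRNA that binds PUMILIO proteins, had a TPM of 103 (Input), 177 (PABPC IP) and 254 (PABPN IP). Its EPKM was 0.225, 0.243 and 0.0530, so that it was among the 9 with more editing in the PABPC IP. Its centred PABPN IP over PABPC IP ratio was 0.15, against 4.03 for MIR17HG, 3.90 for MALAT1 and 2.67 for XIST. Of the 23, 11 (47.8%) were above 0.5 in this ratio and 3 (13.0%) below -0.5. Among all genes at this limit the shares were 26.6% and 35.9%.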

How the data were processed

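Values came from 1 deposited table of 18869 genes. Per the labels the 17 libraries were stranded and ribosomal RNA-depleted, and featureCounts 2.0.2 and STAR on hg38 are named in the submitters' processing notes. The authors kept edits above a confidence score and took the EPKM of control cells off each value. The deposited EPKM and TPM columns were treated as signal, a pooled value per fraction. The authors summed exonic and intronic TPM, counted with a GENCODE release 34 annotation without shared regions. Whether shared regions were left out of EPKM, which samples entered each average and how values below 0 were handled is not stated. The table holds 1 pooled value per gene and fraction, so the tests set for single samples could not be run. Read numbers are stated for the STAMP libraries together and not for each fraction.

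Computed here were shares, medians and log2 ratios of TPM + 0.5, centred on genes with TPM ≥1 in every fraction. Named genes were, among LINC RNAs with TPM ≥5 in both IPs, those highest in EPKM (6 per fraction) or mean TPM (6), with the 5 largest differences each way in EPKM and TPM ratio between the IPs, the 3 most abundant at EPKM 0, those with a reported peptide, and genes with a LINC synonym. Others are marked, and 1 sequence and 1 neighbouring gene are not reported here. The symbol rule uses no measured value, but this class of genes, the lists and the rules were picked with earlier results of these data known. Gene models were those of GENCODE release 44 (hg38). The ratio and frame steps were tested on simulated data. Alternatives changed limits, pseudocount, centring and gene sets. The work was done in Python (3.11.15) with pandas (2.3.3), NumPy (2.4.6), matplotlib (3.10.9) and SciPy (1.17.1).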

Additional observations from a re-analysis of the deposited data

Results flagged for a closer look

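Of the 9 LINC-named genes left out because no TPM was listed, 8 had a normalized EPKM above 0 in at least 1 fraction. That signal lies outside the main comparison and remained after the editing of the control cells was subtracted. Among the 242 with a TPM, 28.1% were at 0 in every fraction, beside 5.08% of PCGs. The share over all listed genes without a TPM is not given here, so no contrast is drawn from the 8. All 9 are covered over 100% of their span by other genes. The highest was that of the second identifier of LINC01605, with 0.149 in the PABPC IP beside 0 in the Input and 0.0487 with PABPN. LINC00294 had an EPKM of 0.0301 (Input), 0.0526 (PABPC IP) and 0 (PABPN IP). Values above 0 were found for 6 of the 9 in the PABPN IP. Among all genes with a TPM that share was 66.1%, so the 6 of 9 were near the background. LINC00412 had the highest PABPN IP value of the 9, 0.0651. The part of the covering genes in these values was not tested.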

How the results depend on the processing

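Each result was recomputed under 82 alternatives for 14 results, 78 of them planned and the 4 without single-exon genes added after seeing the data, and 49 stayed within the range used as a limit. For shares this was the 95% Wilson interval over genes, for medians the 95% order-statistic interval over genes, and for counts a factor of 1.5. The difference of medians was allowed a shift up to the distance from the middle to an end of another interval. That was the 95% order-statistic interval of the median paired difference. These limits treat genes as draws and hold no replicate error. No paired analysis was possible because the table holds 1 pooled value per gene and fraction, and for the same reason no replicate could be left out. The depth per fraction and the reads per gene are not given, so it is not known which zeros reflect too few reads. Leaving out LINC RNAs covered by another gene or those on the upstream-transcription list, run for the shares, the medians and their difference and not for the counts, moved none of these beyond its limit. The same held without genes of 1 exon for the 3 median ratios and the count above 0.5 for PABPN IP over PABPC IP, the only results it was run for. Without the listed genes the difference of median EPKM between the IPs was 0.0116. The median of PABPN IP over PABPC IP without single-exon genes was 0.29.

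With TPM ≥5 in both IPs, the share above 0 was 67.6% (Input), 73.0% (PABPC IP) and 62.2% (PABPN IP), and the median EPKM 0.00372, 0.0343 and 0.0164. With at least 1, the share was 47.0% (Input) and 51.3% (PABPC IP), and the median 0.00178 (PABPC IP) and 0.00565 (PABPN IP). Counting only an EPKM of at least 0.01, the shares were 15.3%, 23.6% and 34.3%. Means in place of medians were 0.00656, 0.0126 and 0.0182. The difference of medians between the IPs reversed to -0.00387 at a TPM of at least 1 and to -0.00213 at any TPM, and the median of paired differences was 0.00219. At those 2 limits 41 and 56 LINC RNAs had a higher EPKM in the PABPC IP, and at any TPM 105 had a higher one in the PABPN IP. Without a TPM filter the median centred ratio was 0.13 for PABPN IP over Input, and for PABPC IP over Input it reversed to -0.42. Without centring the 3 medians were 1.70, 0.89 and 0.76, and 83 and 66 LINC RNAs were above 0.5 over the Input in the PABPN IP and PABPC IP. The uncentred medians of all genes over the Input were themselves 1.22 and 0.88. With a TPM of at least 5 in all fractions, which 17 LINC RNAs reach, the counts above 0.5 were 10, 1 and 9. A threshold of 1 gave 24 for PABPN IP over Input and 0 for PABPC IP over Input. Apart from any TPM, the shares over all genes for these counts are not given here, so no contrast is drawn. The cause of these changes was not tested beyond the number of genes left.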
